A study of Rattus norvegicus with 14 samples.

Results

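Respiratory complex I, NADH:ubiquinone oxidoreductase, is the first and largest enzyme of the mitochondrial respiratory chain. It passes electrons from NADH through a flavin and a row of iron-sulfur clusters to ubiquinone and pumps protons across the inner membrane, and in brain it is the main entry point for electrons that drive ATP synthesis. Its hydrophobic core is encoded by mitochondrial DNA, while the core subunits of the matrix arm, all accessory subunits and the assembly factors that put the pieces together are nuclear genes. The nuclear genes were taken by name: every symbol starting with Ndufa, Ndufb, Ndufc, Ndufs, Ndufv or Ndufaf whose normalized counts averaged at least 10 in neurons or in astrocytes. Of 31789 symbols listed in either cell type, 47 had such a name and 45 passed the minimum, 37 of them named as subunits and 8 as assembly factors (Ndufaf). All 45 were also tested in both cell types. Ndufa10l1 fell below the minimum, with a mean of 6.53 in neurons and 4.93 in astrocytes. Ndufs6, a zinc-binding accessory subunit, was listed at 0 in every astrocyte library and had no row for neurons, and Ndufb1 was not analysed here. Among the 37 subunit names, Ndufa4 is now counted as a subunit of cytochrome c oxidase, complex IV, and Ndufa4l2 is its paralog.

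The cells were primary cultures from the hippocampus of embryonic day 18 Sprague Dawley rats, kept in a medium with reduced supplements that serves as an aging model (AM). The AM medium differed by cell type: Neurobasal with less supplement for neurons, and a DMEM-based medium with charcoal-stripped serum for astrocytes. Neurons on culture day 10 had 4 h in AM medium and then 16 h with the neurosteroid allopregnanolone (Allo, 100 nM) or with vehicle (0.001% ethanol), and 4 AM-Veh and 4 AM-Allo libraries, numbered 1-1, 1-2, 2-1 and 2-2 in each group, were sequenced. Astrocytes, the cells that stayed attached when mixed glial cultures were shaken, had 24 h in AM medium and then 24 h of treatment, with 3 AM-Veh and 3 AM-Allo libraries. All groups were in AM medium, so no culture with full supplements is compared here. The labels do not say whether libraries of a group came from separate cultures, and p-values then measure only the spread between these libraries. Each value is a read count per gene as normalized by the authors. Neuron libraries held an estimated 19700000 to 25000000 reads on genes, and astrocyte libraries held 22100000 to 28400000. Neuron libraries held high glial RNA as well, with Gfap, an astrocyte filament, at a mean of 92703 against 25621 for Map2, the dendritic microtubule protein. Astrocyte libraries had Gfap at a mean of 134664, and held Col1a2, a collagen of mesenchymal cells, at 29729 and Stmn2, a neuronal tubulin-binding protein, at 21769. Stmn2 was the highest of 10 neuron markers, of which 5 reached a mean of 10 in astrocytes, and the lowest listed, Nefm, was at 0.919. In such bulk samples, fewer cells of a type and less RNA per cell cannot be told apart.

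Nuclear respiratory genes are known targets of the transcription factors NRF1, of ETS factors such as GABPA, and of YY1. In RefSeq promoters of the GRCr8 assembly, 250 bases before to 50 bases after each gene's start, 41 of the 45 members had an entry. The letters GCGCANGCG (NRF1) were present on either strand in 8 of 34 subunit promoters, 23.5%, against 5.80% of all 33469 promoters. CCGGAAG (ETS) was present in 7 of the 34, 20.6% against 8.75%, and AAGATGGCG (YY1) in 6 of the 34, 17.6% against 1.73%. Of the 7 assembly factor promoters, NRF1 and ETS letters were each in 2 and YY1 letters in 1. In 12 of the 41 windows the start used lies inside the gene's full span, so the window covers part of the gene for Ndufab1, Ndufc2 and Ndufs5, among others. The 4 stretches below are shown because they belong to members that the results turn on: Ndufs1 and Ndufa2, which differed in opposite directions between the neuron sets, and Ndufaf4 and Ndufa11, the former with the largest neuron to astrocyte ratio of the assembly factors and the latter with matches repeated side by side. All lie before the gene's span and are written 5′ to 3′ on the gene's strand, with the matched letters of 1 match in capitals.
Ndufs1, ETS, chr9:72073778-72073824, minus strand: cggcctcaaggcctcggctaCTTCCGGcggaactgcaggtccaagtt
Ndufa2, ETS, chr18:28632004-28632050, minus strand: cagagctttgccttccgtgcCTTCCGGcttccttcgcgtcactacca
Ndufaf4, NRF1, chr5:43401617-43401665, plus strand: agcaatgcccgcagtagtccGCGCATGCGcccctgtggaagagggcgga
Ndufa11, NRF1, chr9:1637497-1637545, plus strand: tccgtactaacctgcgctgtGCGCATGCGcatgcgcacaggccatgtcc
In Ndufs1 and Ndufa2 the capitals read CCGGAAG on the opposite strand. In Ndufaf4 a match on the opposite strand overlaps the one shown, and in Ndufa11 the match shown overlaps further matches on both strands. None of the 3 sets of letters was found in the promoter windows of Ndufb2, Ndufab1, Ndufa4, Ndufb11 and Ndufc2, the 5 members past an unadjusted p of 0.05 in astrocytes. Of all 41 members with an entry, 22 held at least 1 set. For Ndufab1 and Ndufc2 the window covers part of the gene, as given above, so matches further upstream were not searched. These matches are descriptions of the sequence, not of binding.

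Members were higher in neuron than in astrocyte cultures. The 2 cell types were normalized separately, kept in different AM media and sampled after different times. Levels in AM-Veh were therefore set side by side in CPM (normalized counts per 1000000 of the library), without a test. In these ratios, cell type and medium cannot be told apart. All 37 subunit genes had a ratio of neurons to astrocytes above 1, from 1.13 to 4.44 with a median of 1.84, and 30 of the 37 were above 1.5, 81.1% of them, against 29% of 14384 genes tested in both cell types and a median ratio of 1.07. The summed level of the 37 was 3040 to 3277 CPM in the 4 AM-Veh neuron libraries and 1680 to 1697 CPM in the 3 AM-Veh astrocyte libraries. The 8 assembly factors had a median ratio of 1.63 and 5 were above 1.5. Every AM-Veh neuron library lay above all AM-Veh astrocyte libraries for 44 of the 45 members, as for 44.5% of the 14384 genes.

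The ratio was also described for each module of the enzyme. It had a median of 2.12 over the 10 distal membrane arm subunits (Ndufb), 1.59 over the 9 proximal membrane arm subunits, 1.54 over the 8 accessory subunits of the matrix arm and 1.84 over the 7 nuclear core subunits. Within the core, the 3 subunits of the NADH-oxidising tip stood at 2.01 (Ndufv1, which binds NADH and the flavin), 2.22 (Ndufs1, the largest iron-sulfur subunit) and 2.34 (Ndufv2). Those of the quinone-binding module were lower, from 1.25 for Ndufs7 to 1.84 for Ndufs3. The largest ratios were those of Ndufa4l2, at 2.41 ± 0.482 (SD, n = 4) CPM in neurons and 0.543 ± 0.223 (SD, n = 3) in astrocytes, of Ndufaf4, an early assembly factor of the quinone module, at 3.12, and of Ndufab1, the mitochondrial acyl carrier protein, at 3.05. Ndufab1 had 81.8 ± 3.76 CPM (SD, n = 4) in neurons and 26.9 ± 1.13 (SD, n = 3) in astrocytes. The smallest were those of Ndufaf1, part of the assembly complex of the membrane arm, at 1.05 with overlapping libraries, of Ndufv3, a small subunit at the tip of the matrix arm, at 1.13, and of Ndufaf6, an assembly factor of the membrane arm, at 1.21. The 40 nuclear genes of complexes II to V had a median ratio of 1.94. The 7 complex I genes of mitochondrial DNA had 1.76, and 10 further assembly factors outside the Ndufaf names had 1.25. Cell type markers differed between these AM-Veh cultures as well. In CPM, oligodendrocyte lineage markers summed to 2362 to 2582 in neurons and 275 to 280.2 in astrocytes, mesenchymal and endothelial markers to 30.1 to 69.2 and 2847 to 3391, and microglia markers to 5.21 to 8.20 and 69.3 to 86.4. Neuron markers summed to 2305 to 2612 and 1139 to 1180, while the ranges of astrocyte markers overlapped, at 10648 to 12769 and 11263 to 11936. In astrocytes 5 of the 10 neuron markers reached a mean normalized count of 10, with Stmn2 highest at 21769. The part of these markers in the ratios was not tested.

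**Figure D1:**
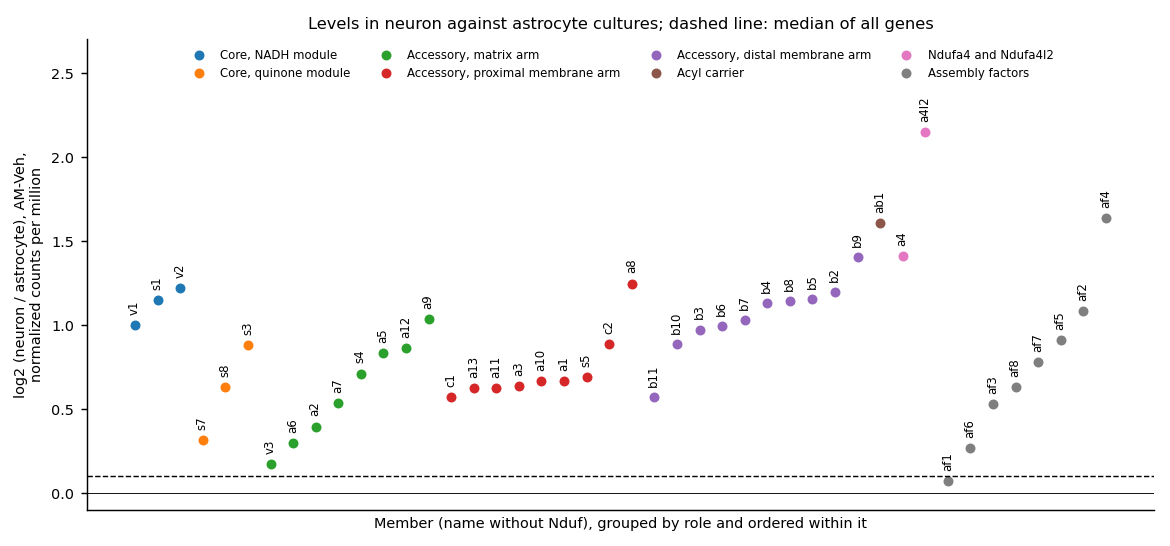
Log2 ratio of the AM-Veh level in neurons to that in astrocytes, in CPM, for 44 of the 45 members (1 point each, grouped by role and ordered within it). The solid line marks equal levels and the dashed line the median of all genes, a ratio of 1.07. Ndufaf1 (1.05) lies below the dashed line and the other points lie above it, up to Ndufa4l2 at 4.44.

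In astrocytes, 5 subunit genes were higher with Allo at an unadjusted p under 0.05 and none was lower, 5 of 37 members beside 3.72% higher and 3.29% lower of all 15380 genes tested. No member passed after Benjamini-Hochberg adjustment, where 0.0065% of genes passed. The 5 were Ndufb2, Ndufab1, Ndufa4, Ndufb11 and Ndufc2, with log2 fold changes of 0.11 to 0.33. Without Ndufa4, a complex IV subunit, and its paralog Ndufa4l2, the count was 4 of 35 subunit genes. Over all 37 subunit genes, 23 were higher and 14 lower, and their log2 fold changes had a median of 0.016, against 0.0014 over all genes tested. The study had picked Ndufb2, Ndufab1 and Ndufa4 from these same libraries, so they are not independent evidence of a direction.

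Ndufb2 (GRCr8 chr4:69334307-69341394), a small accessory subunit of the distal membrane arm, had normalized counts of 501, 481 and 466 in AM-Veh and 490.2, 660.4 and 694 in AM-Allo. AM-Allo replicate 1 lay within the AM-Veh range and the other 2 lay well above it, so the groups overlapped. The log2 fold change was 0.33 (SE 0.11, adjusted p = 0.524), and the two-sided exact permutation test gave p = 0.2. Without AM-Allo replicate 1, the library that lay within the AM-Veh range, the log2 fold change was 0.49, with an adjusted p of 0.00668. When another library was left out, the adjusted p was 0.686 to 0.928. No other Allo fit of any member, under any alternative, had an adjusted p under 0.05.

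Ndufab1 (chr1:186075933-186091843), which carries the acyl chain of mitochondrial fatty acid synthesis and occurs more than once in the structure of complex I, had 643, 615 and 666 normalized counts in AM-Veh and 727, 781 and 705 in AM-Allo. The 3 AM-Allo libraries all lay above the 3 AM-Veh libraries. The log2 fold change was 0.20 (SE 0.061, adjusted p = 0.498). The exact permutation test gave p = 0.1, the smallest it can give with 3 against 3. Ndufb2 and Ndufab1 stayed under an unadjusted p of 0.05 whichever library was left out, and Ndufa4, Ndufb11 and Ndufc2 did not.

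Ndufa4 (chr4:40968391-40975559), the complex IV subunit, had 1658, 1912 and 1775 normalized counts in AM-Veh and 1875, 2032 and 1919 in AM-Allo, with overlap between the groups (log2 fold change 0.13, SE 0.054, adjusted p = 0.686). Ndufb11 (chrX:4126317-4128575), a distal membrane arm subunit, had 1125, 1111 and 1082 in AM-Veh and 1239, 1234 and 1136 in AM-Allo (0.12, SE 0.050, adjusted p = 0.686). Ndufc2 (chr1:161122370-161129413), which sits where the membrane arm meets the matrix arm, had 1055, 1056 and 1049 in AM-Veh and 1110.2, 1198 and 1102 in AM-Allo (0.11, SE 0.050, adjusted p = 0.709). The last 2 did not overlap between groups, but the differences were near 0.1 on the log2 scale. Without AM-Allo replicate 2, the highest of the 3 AM-Allo libraries for 21 of the 37 subunit genes, Ndufb2 and Ndufab1 alone of the 5 stayed under the threshold. Without AM-Veh replicate 3 it was the same number, and without AM-Veh replicate 1 or 2 it was 3.

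By role, the changes in astrocytes were small and mixed. None of the 3 NADH-module and 4 quinone-module core subunits passed. Ndufs1 was lowest relative to vehicle among them, with 2347, 2411 and 2386 normalized counts in AM-Veh and 2259, 2233 and 2286 in AM-Allo, without overlap (log2 fold change −0.076, SE 0.037, adjusted p = 0.727). With upper-quartile scaling and with quantile normalization Ndufs1 passed the unadjusted threshold, so that 4 subunit genes were then called higher and 1 lower. Ndufv1 was the highest of the NADH module at 0.075 and Ndufs7 that of the quinone module at 0.067, both with p above 0.05 and overlapping groups. Among 8 accessory subunits of the matrix arm, Ndufa2, with a fold like thioredoxin, was highest, with 455, 521 and 498 in AM-Veh and 542, 548 and 535 in AM-Allo (0.14, SE 0.069, adjusted p = 0.723). Ndufa5 had the lowest log2 fold change of that arm, −0.10, and Ndufa7 −0.099, neither past the threshold.

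Among the 9 proximal membrane arm subunits, Ndufc2 alone passed. Ndufa1 had the highest value, 0.14 (SE 0.076, adjusted p = 0.77), with overlapping groups, and Ndufa3 the lowest at −0.041. Among the 10 distal membrane arm subunits, 5 were higher and 5 lower, with a median of −0.010 and a lowest value of −0.096 for Ndufb6. Thus Ndufb2 and Ndufb11 were higher while the other 8 genes of the same module lay between −0.096 and 0.033. Ndufa4l2 was near the detection limit, with 8.5 to 18.9 normalized counts, and its interval ran from −1.02 to 0.73.

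Counting by overlap, 5 subunit genes lay wholly higher in AM-Allo (Ndufab1, Ndufb11, Ndufc2, Ndufa2 and Ndufa8, 6.42% of all genes tested were so) and 2 wholly lower (Ndufs1 and Ndufa7, with 6.07% of all genes). The 95% interval of the log2 fold change lay within ±0.2 for 20 of the 37 subunit genes, so a change of that size was not resolved for the others at 3 libraries a group. The summed level of the subunit genes was 1680, 1697 and 1689 CPM in AM-Veh and 1696, 1749.9 and 1707 CPM in AM-Allo, groups that overlap at their edges. The neuron markers summed to 1139 to 1180 CPM in AM-Veh and 1111 to 1161 in AM-Allo of astrocytes, and the mesenchymal and endothelial markers to 2847 to 3391 and 3063 to 3289, ranges that overlap.

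None of the 8 assembly factors passed in astrocytes, with 4 higher, 4 lower and 0.0034 as the median of their log2 fold changes. Ndufaf2, a paralog of the subunit Ndufa12 that holds its place late in assembly, was highest, with 77.1, 82.8 and 57.7 normalized counts in AM-Veh and 82.0, 88.5 and 106 in AM-Allo (0.35, SE 0.18, adjusted p = 0.756). Ndufaf8, partner of Ndufaf5, had 214, 225 and 230.3 in AM-Veh and 256, 286 and 229 in AM-Allo (0.20, SE 0.10, adjusted p = 0.769). Ndufaf7, a methyltransferase, stood at 0.059 and Ndufaf4 at 0.046. Lower in value were Ndufaf1 at −0.10, Ndufaf5, which hydroxylates Ndufs7, at −0.083, Ndufaf6 at −0.046 and Ndufaf3, the partner of Ndufaf4, at −0.039. Only 1 of their 8 intervals lay within ±0.2, so these low-count genes were measured less precisely than the subunits.

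**Figure D2:**
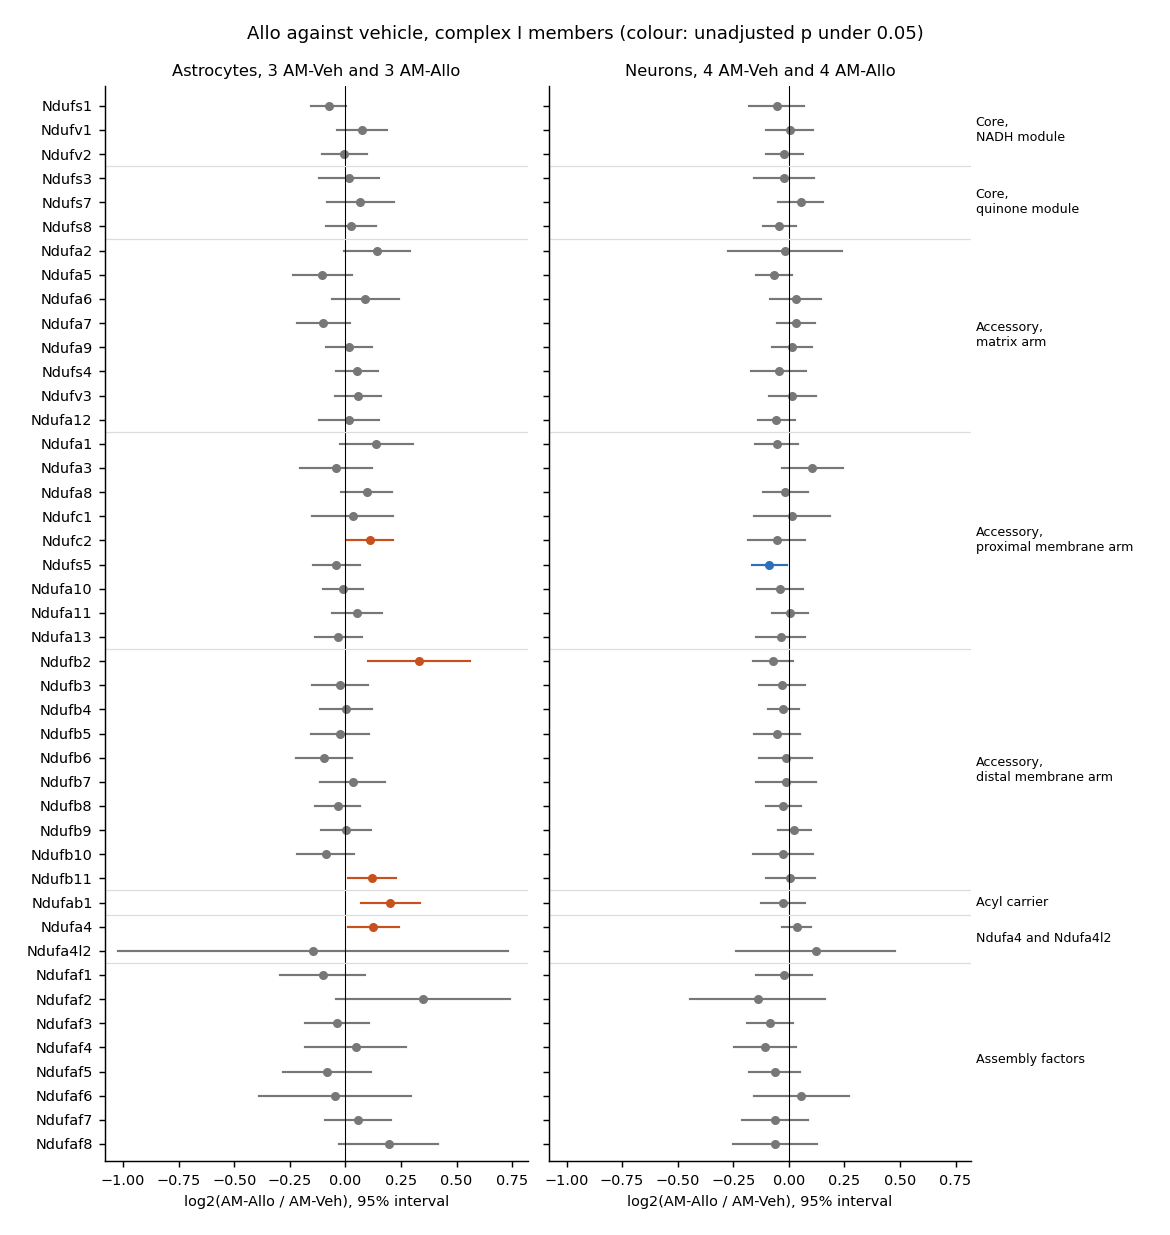
Log2 fold change of AM-Allo against AM-Veh (points) with its 95% interval (lines) for 44 of the 45 members, astrocytes on the left and neurons on the right, ordered by role. Orange marks an unadjusted p under 0.05 and higher with Allo, blue the same and lower: 5 members in astrocytes, up to Ndufb2 at 0.33, and Ndufs5 in neurons at −0.088.

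In neurons, Ndufs5 was the only member past an unadjusted p of 0.05, and it was lower with Allo. The background was 3.21% higher and 2.48% lower of 15314 genes tested. With the replicate number as a block, Ndufs5 was again the only member past it, while 862 of all genes were higher and 772 lower in place of 492 and 380. Neither any subunit nor any assembly factor passed after adjustment, where 0.0261% of genes did. With the replicate block no member passed after adjustment either, while 46 of all genes were then higher and 47 lower. Of 37 subunit genes, 13 were higher and 24 lower, with log2 fold changes from −0.088 to 0.12 and a median of −0.021, against −0.0015 over all genes tested. The 95% interval lay within ±0.2 for 34 of the 37, so changes beyond that size were not seen for these genes with 16 h of Allo.

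Ndufs5 (chr5:141258828-141264552), a cysteine-rich accessory subunit on the intermembrane side of the proximal membrane arm, had normalized counts of 1613, 1615, 1704 and 1690.1 in AM-Veh and 1568, 1525, 1536 and 1602 in AM-Allo. The groups did not overlap, in the direction in which 1.89% of all genes did not overlap (2.06% in the other), and Ndufs5 was the only member of which this held. The log2 fold change was −0.088 (SE 0.035, adjusted p = 0.796), with an exact permutation p of 0.0286, the smallest possible with 4 against 4. It was −0.062 within the libraries numbered 1-1 and 1-2 and −0.11 within those numbered 2-1 and 2-2. Leaving out AM-Veh 2-1, AM-Veh 2-2, AM-Allo 1-2 or AM-Allo 2-1 took p over the threshold, up to 0.0898. In astrocytes the same gene had 1120.2, 1092 and 1100.4 in AM-Veh and 1036, 1116 and 1070.2 in AM-Allo (−0.040, adjusted p = 0.909).

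The 5 members that were higher in astrocytes showed other values in neurons. Ndufb2 had 1004, 1021, 1083 and 1010.5 normalized counts in AM-Veh neurons and 963, 989.6, 1013 and 956 in AM-Allo (−0.070, SE 0.041, adjusted p = 0.921). Ndufab1 was at −0.025, Ndufc2 at −0.054, Ndufb11 at 0.0074 and Ndufa4 at 0.035, none past the threshold and all with overlapping groups. The difference of the 2 cell types' responses was not tested, since they were normalized separately, kept in different media and treated for different times.

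**Figure D3:**
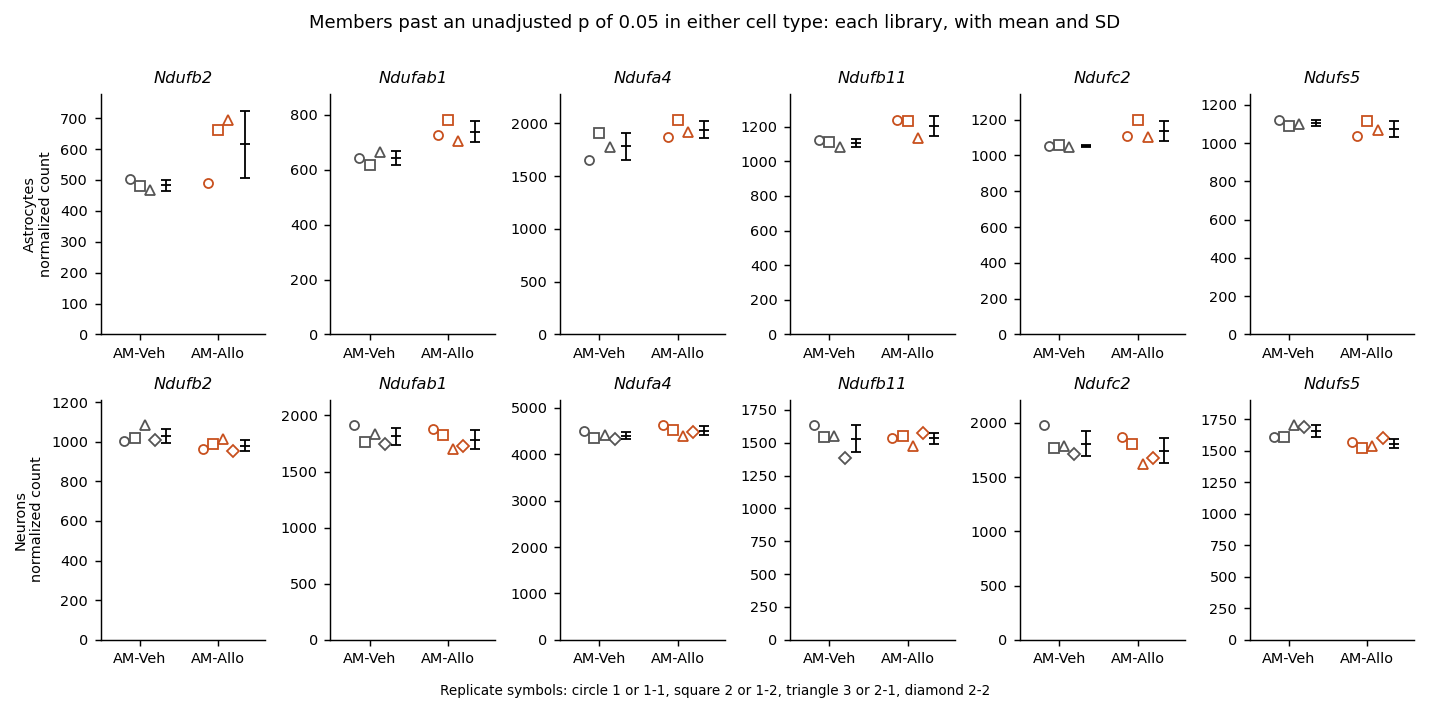
Normalized counts in each library (open symbols by replicate number) for the 6 members past an unadjusted p of 0.05 in either cell type, with the mean and SD of each group beside them; axes start at 0. In astrocytes, AM-Allo replicate 1 of Ndufb2 (490.2) lies among the vehicle libraries, and in neurons the 4 AM-Allo libraries of Ndufs5 (1525 to 1602) lie below the 4 AM-Veh libraries (1613 to 1704).

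By role in neurons, the 3 core subunits of the NADH module lay between −0.055 (Ndufs1) and 0.0031 (Ndufv1). In the quinone module Ndufs8 stood at −0.044, Ndufs3 at −0.021 and Ndufs7 at 0.053. The matrix arm accessory subunits ran from −0.067 (Ndufa5) to 0.032 (Ndufa7). In the proximal membrane arm Ndufa3 had the highest value of any complex I subunit proper, with 816, 754, 700.1 and 782 in AM-Veh and 889, 788, 837 and 769 in AM-Allo (0.11, SE 0.062, adjusted p = 0.922). The distal membrane arm ran from −0.070 (Ndufb2) to 0.025 (Ndufb9), with 8 of 10 lower. Ndufa4l2 stood at 0.12 with an interval from −0.24 to 0.48.

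Of the 8 assembly factors in neurons, 7 were lower in value and Ndufaf6 was higher, at 0.057; none passed. Their median log2 fold change was −0.062. Ndufaf3 had 612, 633, 665 and 645 normalized counts in AM-Veh and 579.7, 609.7, 621 and 597 in AM-Allo (−0.085, SE 0.047, adjusted p = 0.904). Ndufaf4, its partner, had 714, 700.4, 660.2 and 776 in AM-Veh and 653, 719, 624 and 650.1 in AM-Allo (−0.11, SE 0.062, adjusted p = 0.921). Both overlapped between groups. Ndufaf2 was at −0.14 (SE 0.14), Ndufaf5 at −0.063, Ndufaf8 at −0.062, Ndufaf7 at −0.061 and Ndufaf1 at −0.021. Within the libraries numbered 1-1 and 1-2, 7 were lower and Ndufaf6 was higher (median −0.056). Within those numbered 2-1 and 2-2, 7 were lower and the 1 higher was Ndufaf1 (median −0.072).

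Neuron libraries whose replicate number starts with 2 differed from those starting with 1 in complex I more than Allo and vehicle did. The labels do not say what this first part of the number stands for, and both treatments are in each set. In set 2, 32 of 37 subunit genes were lower and 5 higher than in set 1, with a median log2 difference of −0.069, against −0.0026 over all genes tested. At an unadjusted p under 0.05, 17 were lower and 1 higher, where 14.1% of all genes were lower and 15.3% higher. After adjustment 11 were lower and 1 higher, where 7.61% were lower and 9.61% higher. Of the 37, 28 were lower in set 2 among AM-Veh and among AM-Allo libraries alike. Nuclear genes of other complexes were lower in set 2 as well, with medians of −0.10 in complex II, −0.091 in complex III and −0.073 in complex V. After adjustment 3 of 4, 4 of 9 and 6 of 15 of these were lower, and 2 of complex V were higher. Complex IV had a median of −0.0048, and none of its 12 genes passed after adjustment.

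All 7 nuclear core subunits were lower in value in set 2, and 6 of them passed an unadjusted p of 0.05. Ndufs1 had 5147, 5041, 5057 and 5033 normalized counts in set 1 (AM-Veh 1-1 and 1-2, then AM-Allo 1-1 and 1-2) and 4829, 4612, 4454 and 4374 in set 2 in the same order. Every set 1 library was above every set 2 library (log2 difference −0.15, SE 0.027, adjusted p = 0.00107). Ndufs3, of the quinone module, had 1704, 1617, 1608 and 1712 in set 1 and 1519.9, 1498, 1452 and 1478 in set 2 (−0.16, SE 0.034, adjusted p = 0.00458), again without overlap. Ndufv1 fell by 0.12 on the log2 scale (adjusted p = 0.00818), while Ndufs8 was at −0.025 and did not pass.

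Accessory subunits of each arm were among the 11. Ndufs4, which steadies the NADH module and is lost in a form of Leigh syndrome, was at −0.15 (adjusted p = 0.00469) and Ndufa9 at −0.091 in the matrix arm. The proximal membrane arm had Ndufa10, Ndufa13, Ndufa8 and Ndufc2, at −0.10 to −0.13. The distal membrane arm had Ndufb10, with 2009.6, 2066, 2034 and 1941 in set 1 and 1778, 1829, 1841 and 1731 in set 2 (−0.17, SE 0.033, adjusted p = 0.00245), and Ndufb6 at −0.13. The sets did not overlap for 11 subunit genes that were lower in set 2, beside 9.47% of all genes tested.

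Ndufa2 went the other way. It had 559, 526, 494 and 541 normalized counts in set 1 and 630.3, 689, 676 and 674 in set 2, in the same order of libraries, and the sets did not overlap. Its log2 difference was 0.33 (SE 0.053, adjusted p = 0.000435), the largest of any member in size, and it was 0.28 among AM-Veh and 0.38 among AM-Allo libraries. Of the assembly factors, 4 were higher and 4 lower with a median of 0.0019. Ndufaf7 passed, with 689.9, 711, 689.5 and 681 in set 1 and 816, 775, 708 and 788 in set 2 (0.15, SE 0.047, adjusted p = 0.0354). It did not keep that call in 6 of the 8 fits that left out 1 library.

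Summed levels of markers of other cells differed between the sets. In CPM, the 10 astrocyte markers summed to 10634 to 11120 in set 1 and 11780 to 12769 in set 2. Those of the oligodendrocyte lineage summed to 2581 to 2759 and 2362 to 2463, those of mesenchymal and endothelial cells to 46.1 to 122 and 30.1 to 35.9, and those of microglia to 4.88 to 5.64 and 7.47 to 8.20. The neuron markers overlapped, at 2419 to 2612 and 2305 to 2786. Single markers did not all follow the sums. Of the 10 astrocyte markers 6 were higher and 4 lower in set 2, with 4 higher and 3 lower after adjustment. Of the 10 oligodendrocyte lineage markers 4 were higher and 6 lower, with 1 higher and 6 lower after adjustment. The part of these markers in the difference of the complex I genes was not tested. The summed level of the 37 subunit genes was 3210 to 3277 CPM in set 1 and 2985 to 3097 in set 2.

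**Figure D4:**
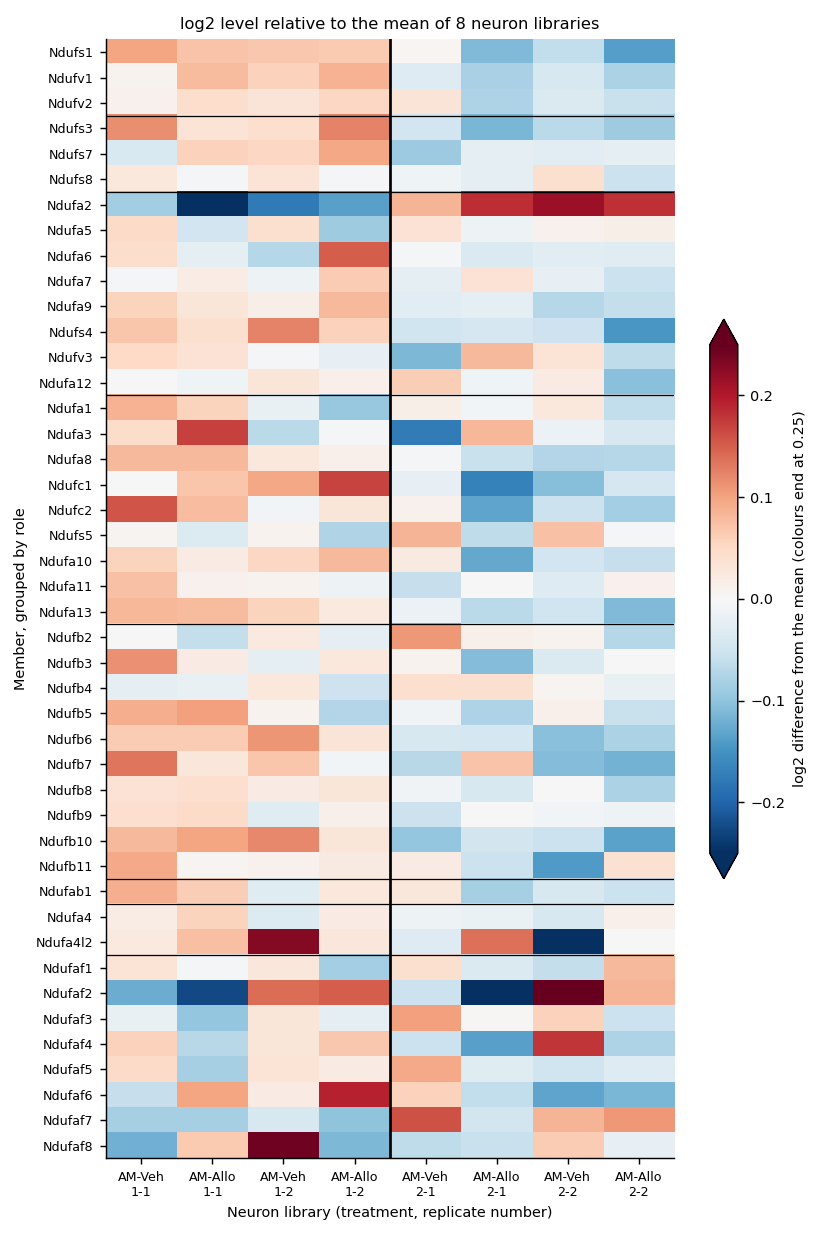
Log2 level of 44 of the 45 members in each of the 8 neuron libraries, relative to the gene's mean over them; rows are grouped by role, columns ordered by replicate number with the vertical line between sets 1 and 2, and colours end at 0.25 on either side. Most subunit rows are red in set 1 and blue in set 2 (of all 37 subunit genes, 32 were lower in set 2), Ndufa2 shows the reverse, and assembly factors are split 4 and 4.

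Other genes of the pathway were counted from lists in the same fits. In astrocytes, 6 of the 7 complex I genes of mitochondrial DNA were lower with Allo at an unadjusted p under 0.05, beside 3.29% of all 15380 genes tested. None of the 7 passed after adjustment, and their difference from the nuclear genes was not tested. Mt-nd3 had 10815 to 12673 normalized counts in AM-Veh and 7714 to 10250.5 in AM-Allo (−0.34, SE 0.089, adjusted p = 0.394), Mt-nd4l was at −0.25, and Mt-nd1, Mt-nd2, Mt-nd4 and Mt-nd5 at −0.094 to −0.10. In neurons none of the 7 passed and their median was −0.032.

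Of 10 further assembly factors that were measured, none passed in either cell type, with medians of 0.024 in astrocytes and −0.015 in neurons. Among the nuclear genes of the other complexes in astrocytes, 3 of 9 in complex III, 6 of 12 in complex IV and 5 of 15 in complex V were higher at an unadjusted p under 0.05, and none in complex II. Of all 15380 genes tested, 3.72% were so. The largest were Atp5mg at 0.44, Cox8a at 0.35, Cox7c at 0.33 and Uqcrq at 0.32, beside Ndufb2 at 0.33. The remaining ones ran from 0.10 (Atp5pd) to 0.31 (Cox6b1) and were Uqcr10, Uqcrb, Cox6c, Cox7a2, Cox7b, Atp5f1d, Atp5me and Atp5pf. The study had named all of these but Uqcrb, Cox7c, Atp5me and Atp5pd as higher in these same libraries, so they are not independent evidence of a direction. In neurons Cox7c alone passed among complexes II to V and was lower (−0.11, SE 0.034, adjusted p = 0.652). No gene of these lists passed after adjustment in either cell type. Of 10 regulators of mitochondrial genes, none passed with Allo in either cell type.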

How the data were processed

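RNA-seq of 8 neuron and 6 astrocyte libraries was analysed, grouped by cell type, treatment and replicate number in the labels. The authors quantified poly(A)-selected, stranded paired-end reads with Salmon 0.14 on the rat Ensembl annotation, summed transcripts to genes with tximport and normalized with DESeq2 1.18.1. The deposited signal is a normalized and not a raw count per gene, so no count model was run here. A second deposited table per cell type holds log2-like values after a variance-stabilizing transformation by the authors. The values were not whole multiples of 1 step, so whole reads were not restored, and the reason was not tested. Depth was estimated from the most frequent value near 1 in each library, taken as 1 read. That value was 0.846 to 1.14 normalized counts.

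The log2 of each normalized count plus 1 was taken, so fold changes of low genes are understated. Genes with a mean of at least 10 were tested, separately for neurons and astrocytes, with lmFit and eBayes (trend) of limma 3.58.1 in R 4.3.3, adjusted over all genes by Benjamini-Hochberg, and single members with two-sided exact permutation tests. Tables were handled with pandas 2.3.3 and numpy 2.4.6. The script was tested on simulated data. Neuron replicate numbers were tested for pairing. Same-number libraries correlated at 0.229 to 0.296 over genes after group means were removed. Libraries sharing the first part of the number alone gave 0.185 to 0.236, a range that overlaps the former. Pairing by the full number was therefore not told apart from a shared set. The main fit and the permutation tests used no pairing, and a block was an alternative. Astrocyte numbers gave −0.0070 to 0.024 and only share a number.

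The members, role lists and tests were chosen with earlier results of these data known, and no list was given a p. Named were members past an unadjusted p of 0.05, the largest rise and fall of each role, every assembly factor, the 3 members the study picked, the 3 largest and smallest ratios, and other pathway genes past that threshold. The values of 1 member are in the counts and medians but are not reported here singly. Transcript lengths were not used here, so levels were not ranked between genes. Promoters came from RefSeq on GRCr8, a build that may differ from the authors', and all 45 members matched by symbol. Alternatives were other offsets, minimums, scalings, the transformed values, limma without trend or with robust fitting, a replicate block and each library left out.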

Additional observations from a re-analysis of the deposited data

Results flagged for a closer look

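In neurons, each group's 4 libraries were searched for 1 library that stands far from the other 3, over 94 sets of values (45 members and the summed levels of subunits and of assembly factors, in 2 groups). Chance flags about 1 set in 20, and 4 of the 94 stood out. Ndufaf1 was at 395.8 normalized counts in AM-Veh 2-2 against 420.7 to 424.3 in the others. Ndufa6, a matrix arm subunit, was at 1013 in AM-Allo 1-2 against 889 to 897. Ndufb5, a distal membrane arm subunit, was at 1693 in AM-Allo 1-1 against 1494 to 1517, and without that library its log2 fold change was −0.095, past an unadjusted p of 0.05. The summed level of the 8 assembly factors was 159.4 CPM in AM-Veh 1-1 against 164.9 to 165.8. No member lay wholly higher with Allo in one cell type and wholly lower in the other.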

How the results depend on the processing

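In neurons, the 1 subunit gene past an unadjusted p of 0.05 with Allo became 3 with the authors' variance-stabilized values (Ndufa5, Ndufs1 and Ndufs5). The assembly factors went from 0 to 1 (Ndufaf3). Over all genes tested, 1141 were then higher and 1062 lower, in place of 492 and 380. In these neuron values both sets have equal means for all 18239 genes, so a fit without a block leaves out the spread between sets. Leaving out 1 library gave 0 to 2 subunit genes and 0 to 1 assembly factors, and medians of −0.042 to 0.001 over the subunits and −0.10 to −0.054 over the assembly factors. The main fit of the neurons had no block, though libraries of the same replicate number were correlated. With the replicate block the count was 1 again, as it was with a block on the first part of the number. The variance-stabilized values with that block, an alternative chosen after seeing the data, gave 1 subunit gene as well and 0 assembly factors. In astrocytes, 5 subunit genes became 1 without the variance trend (Ndufab1), 4 with a replicate block, where numbers are shared but do not pair, and 2 to 6 with 1 library left out. For astrocyte assembly factors the count was 0 to 1 and the median −0.053 to 0.066 with 1 library left out.

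Between the neuron sets, 12 subunit genes past an adjusted p of 0.05 became 6 without the trend and 7 to 13 with 1 library left out, 7 without AM-Allo 1-1 and without AM-Allo 2-2. The 1 assembly factor, Ndufaf7, was at 0 with quantile normalization and without the trend, and at 0 to 1 with 1 library left out. The variance-stabilized values were not run here, because in the deposited neuron table both sets have equal means for all 18239 genes (largest difference 7.5e-09). The median neuron to astrocyte ratio of 1.84 was 1.71 on normalized counts as deposited and 1.72 relative to the median of all genes, both chosen after seeing the data. No single member that had passed a threshold changed sign under any alternative run. With 3 libraries a group the exact test cannot go below 0.1, so the number of libraries limits the single-gene tests there.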
